A study of Danio rerio with 12 samples.

Results

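The genes described are 9 DNA repair genes, xpc, ddb2, xpa, ddb1, ercc1, ercc2, ercc3, ercc5 and neil1, in the eyes of adult zebrafish with and without akr7a3, an aldo-keto reductase gene. They were chosen by symbol as repair genes that are driven by light in zebrafish, set beside repair genes that are not known for this. The rule itself uses no measured value, but earlier results of these data were known when the genes were chosen. All 9 were among the 25432 genes of the expression table. RNA from 12 eyes was sequenced, 6 from akr7a3+/+ and 6 from akr7a3-/- fish. The akr7a3-/- line was made with CRISPR/Cas9 in Tg(fli1:EGFP) embryos, a transgenic line whose vessels carry a green reporter, and has an insertion in the first exon of akr7a3 that leads to an early stop codon. The founder fish were crossed to Tg(fli1:EGFP) fish, and no treatment is named for these eyes. Adult fish lived under a light and dark cycle, and the age, the sex and the hour at which the eyes were taken are not given in the sources used here. No label says whether the eyes came from separate fish, so that every p-value measures the spread between these eyes.

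Nucleotide excision repair removes bulky damage from DNA, such as the dimers that ultraviolet light forms between neighbouring pyrimidines. XPC and the UV-DDB complex of DDB1 and DDB2 find the damage, the helicases ERCC3 (XPB) and ERCC2 (XPD) of the transcription factor TFIIH open the strands, XPA verifies the lesion, and the nucleases ERCC5 (XPG) and ERCC1 with ERCC4 (XPF) cut the damaged strand on either side. NEIL1 belongs to another pathway, as a DNA glycosylase of base excision repair that removes oxidised bases, so that 1 of the 9 genes is not a nucleotide excision repair gene. In zebrafish, light reaches the clocks and repair genes of many tissues directly, and xpc, ddb2 and neil1 have been described as light-induced there, through D-box elements that bind factors of the Tef family.

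The expression values are FPKM, the fragments counted on a gene, divided by the gene's length and by a total of fragments for that eye. In every eye this total was close to the sum of the reads on the genes measured. The totals per eye, worked out from the steps that 1 read makes in these values, were between 21194609 and 34935342 reads for akr7a3+/+ and between 22237970 and 35016388 reads for akr7a3-/-. No library was counted as a repeat, since the reads of each of the 30 pairs of eyes within a genotype gave 27.9 to 127.1 in a chi-square divided by its degrees of freedom. The targeted gene akr7a3 was between 1.35 and 2.65 FPKM (median 2.15) in the akr7a3+/+ eyes, and between 0.267 and 0.414 FPKM (median 0.354) in the akr7a3-/- eyes. The groups did not overlap, and its log2 fold change was -1.56 (SE 0.14, limma, Benjamini-Hochberg adjusted p = 2.656e-05). Fold changes are akr7a3-/- minus akr7a3+/+ on the log2(FPKM + 0.5) scale, which understates the change of low genes. A gene was called changed at an adjusted p under 0.05 over all 18473 genes tested.

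Of the 9 repair genes, ddb2 alone passed the test. Its level in the akr7a3-/- eyes was 58.1% below that in the akr7a3+/+ eyes. The other 8 genes did not pass, and xpc, which shares with ddb2 both the task of finding damage and the description as a light-induced gene, had nearly the same level in both genotypes. All 9 genes passed the filter on low values. A single called gene is 11.1% of the 9, and 11.5% of all genes tested were called in either direction, so that the count itself does not set these genes apart. By direction, 0 of the 9 rose and 1 fell, where 5.78% of all genes tested rose and 5.77% fell. The median log2 fold change of the 9 genes was -0.11, and that of all genes tested was -0.01.

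**Figure D1:**
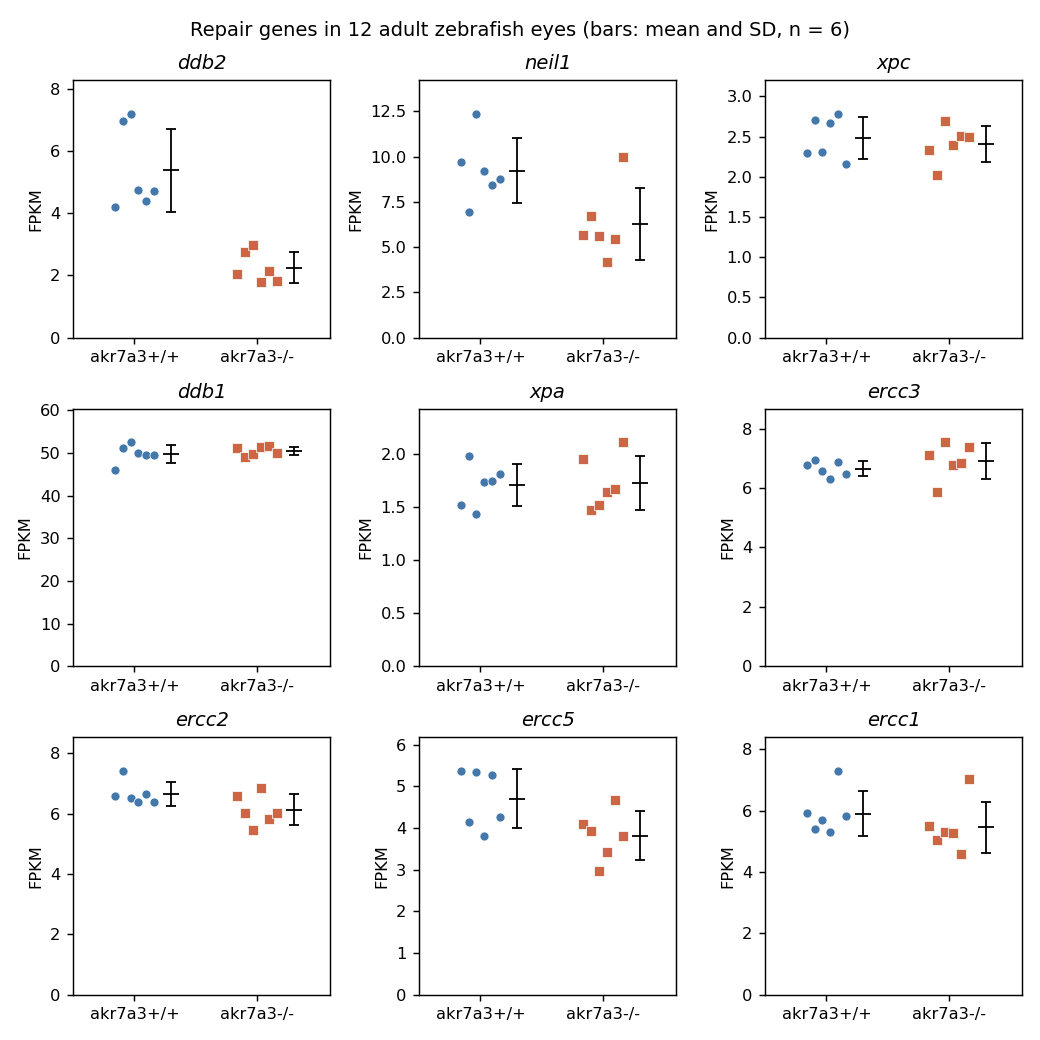
Level of each of the 9 repair genes in every eye, in FPKM, with 1 point per eye and bars for the mean and SD over the 6 eyes of each genotype. The akr7a3-/- eyes lie at 1.79 to 2.99 FPKM for ddb2, all below the akr7a3+/+ eyes at 4.22 to 7.21 FPKM, and the genotypes overlap for the other 8 genes.

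The genes that find the damage come first. The gene ddb2 (ENSDARG00000041140) encodes the subunit of UV-DDB that contacts the lesion. Its level was between 4.22 and 7.21 FPKM (median 4.73) in the akr7a3+/+ eyes, and between 1.79 and 2.99 FPKM (median 2.08) in the akr7a3-/- eyes. Every akr7a3-/- eye lay below every akr7a3+/+ eye, which was so for 1 of the 9 genes. Over all genes tested the groups did not overlap for 6.62%, with 3.06% lower and 3.55% higher in akr7a3-/- eyes. The akr7a3+/+ eyes 2 and 3 (by replicate number) stood above the other 4 of their genotype, at 6.97 and 7.21 FPKM. The means were 5.38 ± 1.34 and 2.25 ± 0.502 FPKM (SD over 6 eyes each), a 2.39-fold difference. The log2 fold change was -1.08 (SE 0.15, 95% interval -1.42 to -0.75), with a Benjamini-Hochberg adjusted p of 0.0006911 from limma and an exact two-sided permutation p of 0.002165, the smallest that 6 against 6 eyes can give. These values rest on 447 to 737 reads per eye in akr7a3+/+ and on 173 to 284 reads in akr7a3-/-. The call held without each eye in turn, with log2 fold changes from -1.16 to -0.999 and adjusted p-values up to 0.002414.

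The levels of some cell type markers also moved with the genotype. For comparison, 5.78% of all genes tested rose and 5.77% fell. Of the muscle markers, 10 of 20 tested were lower in the akr7a3-/- eyes and 0 higher, and their summed level was 957.9 to 2212 FPKM in akr7a3+/+ and 812.2 to 1127 FPKM in akr7a3-/- eyes. The akr7a3+/+ eye with the highest muscle sum, replicate number 3, was also the one with the highest ddb2 level. Without that eye the log2 fold change of ddb2 was -0.999 (adjusted p = 0.001467, limma). Of the cone markers 6 of 14 rose and 3 fell, with sums of 16140 to 23000 FPKM in akr7a3+/+ and 22000 to 27610 FPKM in akr7a3-/- eyes, and of the rod markers 2 of 11 rose and 1 fell, with sums of 13320 to 26160 and 25630 to 33640 FPKM. Of the lens markers 0 of 14 were called by limma or voom and 3 had an unadjusted limma p under 0.05, but all 14 had a log2 fold change below 0, with a median of -1.32. Their summed level was 3008 to 6262 FPKM in akr7a3+/+ and 218.9 to 6624 FPKM in akr7a3-/- eyes, with the lowest sum in the akr7a3-/- eye with the replicate number 1. Without that eye the log2 fold change of ddb2 was -1.06 (adjusted p = 0.002026, limma). Of 7 red cell markers 1 rose, of 10 cornea and skin markers 1 fell, of 11 pigment cell markers 2 fell, and of 10 leukocyte markers 0 were called by limma or voom, with 1 unadjusted limma p under 0.05. No marker of these lists was at 0 in every eye, and the summed level of the rod markers was at least 13320 FPKM in every eye. The part of tissue composition in the level of ddb2 was not tested, and in these bulk samples fewer cells of a type and less RNA per cell cannot be told apart.

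The gene ddb1 (ENSDARG00000074431) encodes the partner of DDB2, which also serves as the adaptor of CUL4 ubiquitin ligases outside repair. It was between 46.1 and 52.5 FPKM (median 49.8) in the akr7a3+/+ eyes, and between 49.1 and 51.5 FPKM (median 50.6) in the akr7a3-/- eyes. The akr7a3-/- eyes all lay within the range of the akr7a3+/+ eyes. The log2 fold change was 0.02 (95% interval -0.08 to 0.12, adjusted p = 0.8221, limma), on 3801 to 6189 reads per eye.

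The plain FPKM ratio of ddb2 to ddb1 within an eye does not depend on how the eyes are scaled to each other. It was between 0.0890 and 0.137 in the akr7a3+/+ eyes (median 0.0951), and between 0.0349 and 0.0600 in the akr7a3-/- eyes (median 0.0405). The genotypes did not overlap in this ratio either. Its mean log2 value, with 0.5 FPKM added to each gene, was -3.12 ± 0.27 with akr7a3+/+ and -4.23 ± 0.27 with akr7a3-/- (SD over 6 eyes each). The added 0.5 FPKM makes these log2 values depend in part on the scaling. The difference of -1.10 had an exact two-sided permutation p of 0.002165, and ran from -1.18 to -1.04 without each eye in turn. Since ddb1 had nearly the same level in both genotypes, this ratio restates the fall of ddb2 and is no separate support for it. Both genes of UV-DDB lie on 1 chromosome in the assembly GRCz12tu, and none of the 9 genes lies on the chromosome of akr7a3 there.

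The gene xpc (ENSDARG00000039754) encodes the sensor that finds distorted DNA across the genome. It was between 2.16 and 2.79 FPKM (median 2.48) in the akr7a3+/+ eyes, and between 2.02 and 2.69 FPKM (median 2.44) in the akr7a3-/- eyes. The ranges nearly coincided. The log2 fold change was -0.04 (95% interval -0.22 to 0.14, adjusted p = 0.8218, limma), on 230 to 442 reads per eye. A change of xpc as large as that of ddb2 lies outside this interval. The gene rad23b, whose product stabilises XPC, averaged 38.5 ± 1.97 FPKM with akr7a3+/+ and 36.8 ± 2.13 FPKM with akr7a3-/- (SD over 6 eyes each), and its log2 fold change was -0.06 (adjusted p = 0.506, limma). The ratio of xpc to rad23b had a median of 0.0647 in akr7a3+/+ and 0.0649 in akr7a3-/- eyes, and its mean log2 value differed by 0.03 (exact two-sided permutation p = 0.7641).

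**Figure D2:**
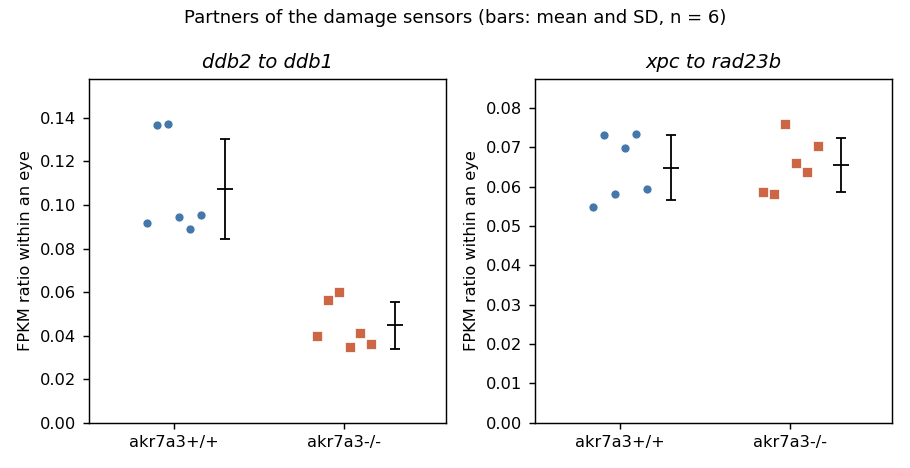
Ratios of FPKM within each eye, ddb2 to ddb1 and xpc to rad23b, with 1 point per eye and bars for the mean and SD over 6 eyes. The ratio of ddb2 to ddb1 separates the genotypes, with 0.0349 to 0.0600 in the akr7a3-/- eyes and 0.0890 to 0.137 in the akr7a3+/+ eyes, and the ratio of xpc to rad23b does not.

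The glycosylase gene neil1 (ENSDARG00000018061) had the largest difference after ddb2 among the 9 genes. It was between 6.95 and 12.4 FPKM (median 8.99) in the akr7a3+/+ eyes, and between 4.19 and 10.001 FPKM (median 5.65) in the akr7a3-/- eyes. In 5 of 6 akr7a3-/- eyes it was below the lowest akr7a3+/+ eye, and the exception was the akr7a3-/- eye with the replicate number 9, at 10.001 FPKM. The log2 fold change was -0.55 (SE 0.17, 95% interval -0.92 to -0.17), which did not pass the test across all genes (adjusted p = 0.05941, limma). The exact two-sided permutation p of neil1 alone was 0.02165. Without the akr7a3-/- eye 9 the log2 fold change was -0.68 and the adjusted p 0.009829, and without the akr7a3+/+ eye 2 they were -0.62 and 0.04499. Under the other alternatives the adjusted p of neil1 ran from 0.05549 to 0.1847.

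The genes of TFIIH, lesion verification and incision follow. The helicase gene ercc3 (ENSDARG00000002402) was between 6.31 and 6.94 FPKM (median 6.67) in the akr7a3+/+ eyes, and between 5.85 and 7.54 FPKM (median 6.99) in the akr7a3-/- eyes. Its log2 fold change was 0.05 (95% interval -0.09 to 0.19, adjusted p = 0.6909, limma). The akr7a3-/- eyes spread over the whole akr7a3+/+ range and beyond it at both ends. The other helicase gene, ercc2 (ENSDARG00000021985), was between 6.36 and 7.41 FPKM (median 6.54) in the akr7a3+/+ eyes, and between 5.44 and 6.86 FPKM (median 6.02) in the akr7a3-/- eyes. Although 4 of 6 akr7a3-/- eyes lay below the lowest akr7a3+/+ eye, the log2 fold change of -0.11 (95% interval -0.25 to 0.03) did not pass the test in limma (adjusted p = 0.3224).

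The scaffold gene xpa (ENSDARG00000038114) was the lowest of the 9, at 1.44 to 1.98 FPKM (median 1.74) in the akr7a3+/+ eyes, and at 1.47 to 2.11 FPKM (median 1.66) in the akr7a3-/- eyes. Its log2 fold change was 0.01 (95% interval -0.20 to 0.22, adjusted p = 0.9551, limma), on 66 to 132 reads per eye. The eyes of both genotypes covered much the same range. The nuclease gene ercc5 (ENSDARG00000023678) was between 3.82 and 5.37 FPKM (median 4.77) in the akr7a3+/+ eyes, and between 2.97 and 4.67 FPKM (median 3.87) in the akr7a3-/- eyes. Of the akr7a3-/- eyes, 3 of 6 lay below the lowest akr7a3+/+ eye. The log2 fold change of ercc5 was -0.27 (95% interval -0.51 to -0.03), which did not pass the test across all genes (adjusted p = 0.1453, limma). The exact two-sided permutation p of ercc5 alone was 0.04329. The gene of the other nuclease's partner, ercc1 (ENSDARG00000031680), was between 5.29 and 7.30 FPKM (median 5.75) in the akr7a3+/+ eyes, and between 4.58 and 7.02 FPKM (median 5.28) in the akr7a3-/- eyes. Its log2 fold change was -0.11 (95% interval -0.32 to 0.11, adjusted p = 0.5306, limma), and 1 eye of each genotype stood well above the rest.

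The order of the levels can be read because FPKM is scaled to gene length. In the akr7a3+/+ eyes the mean levels ran in the order ddb1, neil1, ercc3, ercc2, ercc1, ddb2, ercc5, xpc and xpa. The mean of ddb1 was 5.39 times that of neil1, and the means of the 8 genes below ddb1 lay between 1.71 and 9.23 FPKM. Neighbours whose eyes did not overlap were ddb1 and neil1, neil1 and ercc3, ercc5 and xpc, and xpc and xpa. The step from neil1 to ercc3 was narrow, with the lowest eye of neil1 at 6.95 FPKM and the highest of ercc3 at 6.94 FPKM. The range of neil1 did overlap those of ercc2, ercc1 and ddb2, which reached 7.41, 7.30 and 7.21 FPKM. The neighbours from ercc3 to ercc5 overlapped, so that ercc3, ercc2, ercc1, ddb2 and ercc5 formed a run without clear steps between neighbours. In it ddb2 was above ercc5 in 4 of 6 eyes. In the akr7a3-/- eyes ercc1 was above ddb2 in 6 of 6 eyes with no overlap and a mean 2.42 times as high. There ddb2 was above ercc5 in 1 of 6 eyes and their ranges still overlapped, as did those of neil1 and ercc3.

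The lower level of ddb2 was also set against each of the other 8 genes within the eye. The ratio to ddb1, given above, was planned, and those to the other genes were added after the values were seen. Since ddb2 had been seen to fall and most of the others not to, these ratios restate its fall on a within-eye scale. The added ratios are given as a description with no test. The log2 ratio of ddb2 to each of the 7 genes other than neil1 was lower in the akr7a3-/- eyes by an amount between -1.13 for ercc3 and -0.81 for ercc5. For ddb1, xpc, xpa, ercc1, ercc2 and ercc3 the genotypes did not overlap in this ratio, and for ercc5 and neil1 they did. The ratio to xpc, for example, was 1.58 to 3.13 in the akr7a3+/+ eyes and 0.730 to 1.37 in the akr7a3-/- eyes. Against neil1 the difference was -0.53, and it was -0.39 without the akr7a3+/+ eye 2 and -0.35 without the akr7a3-/- eye 9.

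How the levels varied among eyes of 1 genotype was described by the correlation of the deviations from the genotype means on the log2 scale over the 12 eyes. It was 0.03 between ddb2 and neil1 and -0.02 between ddb2 and xpc. The genes whose deviations were most like those of ddb2, out of 16839 genes whose mean reached 1 FPKM, were synm (r = 0.916), ino80c (r = 0.902) and tiam2a (r = 0.900). For xpc they were nup85 (r = 0.954), fut8a (r = 0.922) and spon1a (r = 0.903), and for neil1 they were rrad (r = 0.886), si:ch211-133l5.7 (r = 0.874) and enosf1 (r = 0.866). Each of these values describes the same 12 libraries and is the highest of many. Of the genes most like ddb2, synm, which encodes an intermediate filament protein, fell from a mean of 34.1 ± 4.79 to 21.9 ± 3.58 FPKM (SD over 6 eyes each) with no overlap of the genotypes, and its log2 fold change was -0.63 (adjusted p = 0.003386, limma). The other genes most like ddb2 did not pass the test, and their genotypes overlapped. Their log2 fold changes were -0.28 for ino80c (adjusted p = 0.1232, limma) and -0.22 for tiam2a (adjusted p = 0.06585, limma). The genes most like neil1 differed in direction. Of them rrad had 12.3 ± 4.62 and 22.4 ± 8.78 FPKM (SD over 6 eyes each; log2 fold change 0.79, adjusted p = 0.08597, limma), enosf1 had a log2 fold change of -0.12 (adjusted p = 0.526, limma), and si:ch211-133l5.7 fell from a mean of 11.6 ± 2.38 to 3.81 ± 1.78 FPKM (SD over 6 eyes each), and its log2 fold change was -1.55 (adjusted p = 0.0008337, limma).

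Genes known for their light response or as D-box factors were taken as a reference for ddb2, xpc and neil1. Of 5 such genes tested, 3 fell and 0 rose (60.0%, against 11.5% of all genes tested). This short list was chosen with earlier results of these data known, so that its share is a description and no test. The gene tefa, which encodes a D-box binding factor, fell from a mean of 44.3 ± 4.65 to 25.7 ± 3.24 FPKM (SD over 6 eyes each), and its log2 fold change was -0.78 (adjusted p = 0.0001897, limma). Its paralog tefb fell from a mean of 27.9 ± 6.15 to 14.4 ± 4.32 FPKM (SD over 6 eyes each), a log2 fold change of -0.95 (adjusted p = 0.005741, limma). The gene cry-dash, of the cryptochrome and photolyase family, fell from a mean of 4.64 ± 0.993 to 1.59 ± 0.417 FPKM (SD over 6 eyes each), a log2 fold change of -1.30 (adjusted p = 0.0002958, limma). For tefb the gap was narrow, with the lowest akr7a3+/+ eye at 21.86 FPKM and the highest akr7a3-/- eye at 21.78 FPKM. The genotypes did not overlap for these 3 genes, and 3.06% of all genes tested were lower in akr7a3-/- eyes with no overlap. In contrast, the light-induced clock genes per2 and cry1aa did not pass the test. Of these, per2 had 46.5 ± 6.61 and 49.2 ± 2.45 FPKM (SD over 6 eyes each; log2 fold change 0.09, 95% interval -0.10 to 0.28, adjusted p = 0.5514, limma). The level of cry1aa was 67.0 ± 2.80 and 65.5 ± 5.15 FPKM (SD over 6 eyes each; log2 fold change -0.04, 95% interval -0.17 to 0.10, adjusted p = 0.7643, limma). The photolyase gene cry5 was below the filter, at 0.370 to 0.760 FPKM in akr7a3+/+ and 0.180 to 0.436 FPKM in akr7a3-/- eyes (exact two-sided permutation p = 0.01299). With no filter on low values, 4 of 6 light reference genes were called, all lower in akr7a3-/- eyes and cry5 among them. The hour of collection is not known here, and a difference in hour between the genotypes and the genotype itself cannot be told apart. The promoters of these genes were not analysed here.

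**Figure D3:**
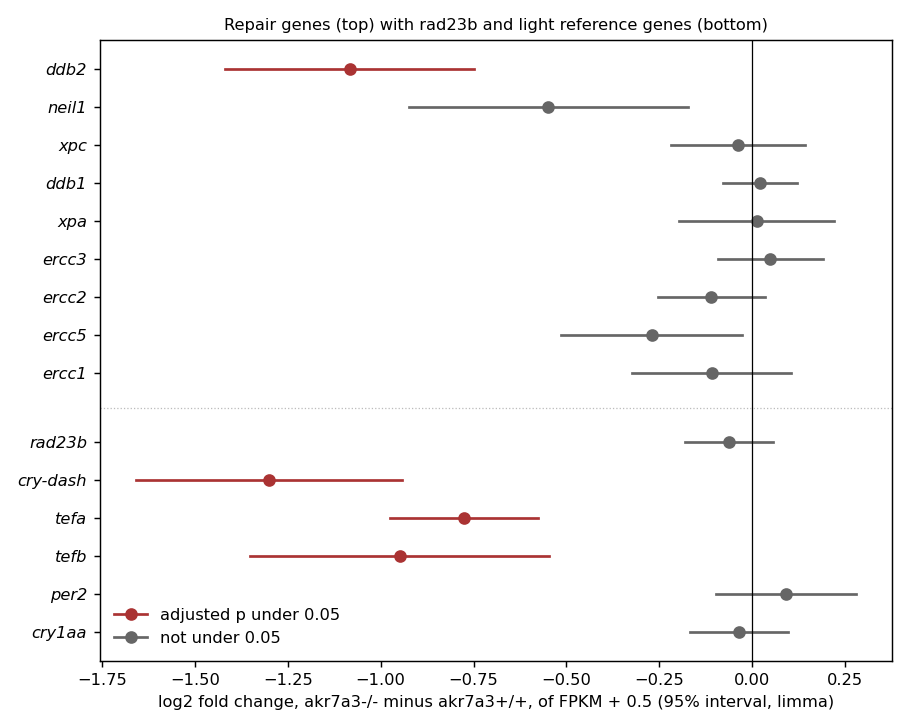
Log2 fold change of FPKM + 0.5, akr7a3-/- minus akr7a3+/+, with the 95% interval from limma, for the 9 repair genes, rad23b and the light reference genes tested. The genes ddb2 (-1.08), cry-dash (-1.30), tefa (-0.78) and tefb (-0.95) had an adjusted p under 0.05, and the others, drawn in grey, did not.

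The remaining nucleotide excision repair genes were counted by the step at which they act. Of 47 tested, 3 fell and 0 rose, which is 6.38% against the 11.5% of all genes tested, and their median log2 fold change was -0.06. Among the damage recognition genes 2 of 10 fell. These were cetn4, which encodes a centrin, the family that binds XPC, with a fall from a mean of 25.1 ± 4.77 to 18.1 ± 1.68 FPKM (SD over 6 eyes each; log2 fold change -0.45, adjusted p = 0.02923, limma), and cul4a. The latter encodes a scaffold of the ubiquitin ligase that UV-DDB joins, and fell from a mean of 25.7 ± 1.44 to 22.4 ± 1.06 FPKM (SD over 6 eyes each; log2 fold change -0.20, adjusted p = 0.03354, limma). Its genotypes did not overlap. The other centrin genes, cetn2 (log2 fold change -0.04, adjusted p = 0.8639, limma) and cetn3 (0.005, adjusted p = 0.9877, limma), were not called. Neither was cul4b, the paralog of cul4a (-0.08, adjusted p = 0.3637, limma). With voom on whole reads 1 of the 10 was called, and cetn4 was not (log2 fold change -0.43, adjusted p = 0.06772).

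Of the 7 transcription-coupled repair genes, the 9 TFIIH genes and the 4 verification and incision genes tested besides the 9, 0 were called by limma or by voom on whole reads. An unadjusted limma p under 0.05 was found for 0, 1 and 1 of them. Of the 17 gap filling and ligation genes, 4 had an unadjusted limma p under 0.05, and the log2 fold changes of the 17 ran from -0.36 to 0.20. The gene called was xrcc1, which fell from a mean of 4.15 ± 0.281 to 3.38 ± 0.353 FPKM (SD over 6 eyes each). Its log2 fold change was -0.26 (adjusted p = 0.04145, limma). XRCC1 is a scaffold protein that joins DNA ligase at breaks and serves base excision repair too. These calls lay close to the threshold. The count of 3 was 0 without the akr7a3+/+ eye 4 or the akr7a3-/- eye 4, 5 or 8, and 1 without the akr7a3+/+ eye 3 or 7.

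**Figure D4:**
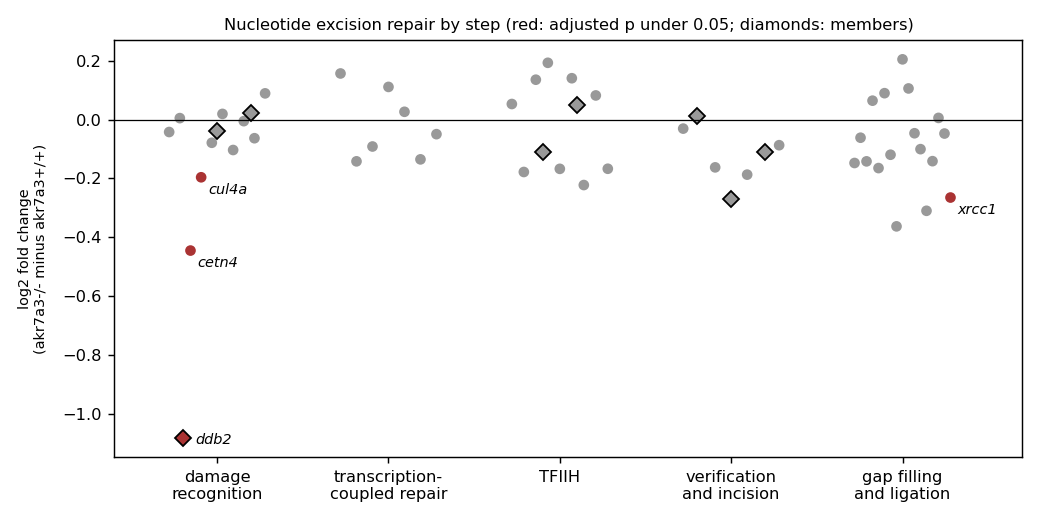
Log2 fold change of each tested nucleotide excision repair gene by step of the pathway, with red for an adjusted p under 0.05 and diamonds for the genes of the 9 that act in it. The point of ddb2 lies at -1.08, below cetn4 at -0.45, xrcc1 at -0.26 and cul4a at -0.20.

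Beside neil1, 26 other base excision repair genes were tested, of which 2 fell (7.69%) and 0 rose, with a median log2 fold change of -0.11. Over all genes tested 11.5% were called, with 5.77% lower in akr7a3-/- eyes. The 2 base excision repair genes that fell were xrcc1 and aptx, whose product removes adenylates left at broken DNA ends. The level of aptx fell from a mean of 3.87 ± 0.702 to 2.74 ± 0.443 FPKM (SD over 6 eyes each; log2 fold change -0.43, adjusted p = 0.04446, limma), a call that was lost with voom (adjusted p = 0.1014) and with median-of-ratios scaling (adjusted p = 0.05423). The count of 2 was 0 or 1 without any single eye other than the akr7a3+/+ eye 1 and the akr7a3-/- eye 9. It was 0 with no filter on low values. With median-of-ratios scaling 3 of the 26 genes were called, 2 lower and 1 higher in akr7a3-/- eyes. In the main fit 17 of the 26 had a log2 fold change below 0 and 9 above 0. Of the proliferating cell markers, a list that shares pcna with the repair lists, 0 of 14 were called by limma or voom and 1 had an unadjusted limma p under 0.05. Of these 14 markers, 13 had a log2 fold change below 0 and 1 above 0, with a median of -0.25. The summed level of this marker list, untested entries included, was 47.4 to 103.3 FPKM (median 53.35) in akr7a3+/+ eyes. It was 40.7 to 60.5 FPKM (median 54.39) in akr7a3-/- eyes, so that the medians did not show a fall. The highest sum was in the akr7a3+/+ eye with the replicate number 1.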

How the data were processed

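The genotype and replicate number of the 12 eyes come from their labels. The values are FPKM as deposited by the authors, who aligned the reads to GRCz11 (HISAT2) and counted per gene (featureCounts 2.0.3), with edgeR and limma named for their own analysis. Neither the annotation release nor the counting settings (strand, reads that fit several genes) are given in the sources used here, so that reads of overlapping or near-identical genes may be shared. Larvae and livers are not analysed here.

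Whole reads, within 0.01 read, were worked out for all 25432 genes (100.0% of values) from the steps in the FPKM values, 751 of the genes being at 0 in every eye. These reads served to give the depth and for limma's voom, an alternative that called 2293 genes. The main test was limma (3.58.1, R 4.3.3), fitted to log2(FPKM + 0.5) with genotype as the single term and its variance trend switched on. The 18473 genes that reached 0.5 FPKM in 6 or more eyes were tested. edgeR was not used here because the table holds FPKM. Adjusted p-values are Benjamini-Hochberg values over these genes. Single values and ratios were tested with exact two-sided permutations over eyes. The fit was tested on simulated data.

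The 9 genes, the pathway lists and the marker lists were chosen with earlier results of these data known. Named by rule were the 9 genes, akr7a3, rad23b, the light reference genes, up to 6 called genes of each of the nucleotide and base excision repair lists, and the 3 genes most like each of xpc, ddb2 and neil1. One further gene list that was counted is not reported here. Of the symbols listed, 48 of 50 gave rows for the other nucleotide excision repair genes, 27 of 30 for base excision repair and 6 of 10 for the light reference. Chromosomes were matched by symbol for 9 of 9 genes in GRCz12tu, another build than that of the alignment.

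Alternatives were other pseudocounts (0.1 and 1), no filter or 1 FPKM, median-of-ratios scaling, limma's robust option, voom, a block on the shared replicate numbers and leaving out each eye. The ratios of ddb2 to the genes other than ddb1 and the alternatives for the mismatch repair and light lists were added after seeing the data.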

Additional observations from a re-analysis of the deposited data

Results flagged for a closer look

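In 3 of 32 groups of 6 eyes examined, 1 eye stood apart from the others by Dixon's criterion, where chance gives about 1 in 20. The gene ercc1 was at 7.30 FPKM in the akr7a3+/+ eye 6, against at most 5.94 FPKM in the other 5, and at 7.02 FPKM in the akr7a3-/- eye 9, against at most 5.49 FPKM. The gene ercc2 was at 7.41 FPKM in the akr7a3+/+ eye 2, against at most 6.63 FPKM in the other 5.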

How the results depend on the processing

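The log2 fold change of ddb2 kept its sign and its call under every alternative other than the replicate block, between -1.25 with voom and -0.96 with a pseudocount of 1. The eyes that share the replicate numbers 1, 4 and 7 did not deviate together (correlations of 0.08, -0.20 and 0.07), and no source says that these numbers pair fish. Only these numbers occur in both genotypes, so that with the replicate block the genotype difference rests on 3 pairs of eyes. The other eyes do not enter it, and so few pairs leave little power to call a gene. With the replicate block, 1 gene was called in all, and 0 of the 9 genes, 0 of the other nucleotide excision repair genes, 0 of the base excision repair genes and 0 of the light reference genes. In that fit ddb2 had a log2 fold change of -0.92 (adjusted p = 0.1464, limma), akr7a3 had a log2 fold change of -1.38 (adjusted p = 0.1362, limma), the ratio of ddb2 to ddb1 changed by -0.98 (exact permutation p = 0.25, the smallest that 3 pairs allow), and the signs turned for xpa (-0.0046), ercc2 (0.0088) and cry1aa (0.0051). Without a filter 0 base excision repair genes were called. Leaving out each eye gave 1 to 2 called genes of the 9, 0 to 3 of the other nucleotide excision repair genes and 0 to 2 of the base excision repair genes. It gave log2 fold changes of -0.0704 to 0.0019 for xpc, -0.0358 to 0.0468 for xpa and -0.00094 to 0.0366 for ddb1, and -0.0166 to 0.0575 for the ratio of xpc to rad23b. The causes were not tested. Median-of-ratios scaling called 1235 genes higher and 1068 lower, against 1068 and 1065. The planned search of promoters for D-box motifs, with its alternative, was not run because no promoter sequence was used here. Of the 9 genes xpa had the fewest reads, 66 to 132 per eye.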

Other observations

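Of 7 mismatch repair genes tested, 0 were called by limma or by voom on whole reads, and 2 had an unadjusted limma p under 0.05.

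The akr7a3-/- eye with the replicate number 9 had the highest level of its genotype for neil1 (10.001 FPKM), ercc1 (7.02 FPKM) and xpa (2.11 FPKM), and the second lowest for ddb2 (1.82 FPKM).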
